A study of Mus musculus with 2 samples.

Results

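The cytosolic ribosome is built from a small subunit, which reads the messenger RNA, and a large subunit, which joins amino acids. The genes described here are named after its protein parts, and a name alone does not show that a product, above all that of a paralogue, is part of the ribosome. They were taken by symbol: protein-coding genes whose name starts with Rpl, Rplp or Rps followed by a number, and Rpsa, without the Rps6k kinases, pseudogene symbols (-ps) and Rps19bp genes. The rule found 85 of the 45706 genes listed in the files, 52 of the large and 33 of the small subunit. Symbols of 7 of them end in l or l1 (paralogues, duplicated relatives of a ribosomal protein gene).

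Counts come from RNA sequencing of intestinal stem cells. The animals, Lgr5-EGFP-IRES-creERT2 mice, carry an allele whose Lgr5 locus drives a green fluorescent protein and a Cre recombinase. Cells bright for that protein were sorted from mice 4 months old, and total RNA went into the libraries. The fed group, 1 library, had free access to standard chow. The fasted group, 1 library, was fasted, with no duration given in the labels, nor the number of mice. Both groups carry the same allele, and neither has an added treatment. Since each group is 1 library, a difference describes these 2 libraries. No replicate error can be given, and no p-value.

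Ribosomal proteins are needed in equal numbers, 1 of most of them in each ribosome, and their messages make up a large part of the messenger RNA of dividing cells. Most of these messages begin with a C followed by a run of pyrimidines, the 5′ terminal oligopyrimidine (TOP) motif, through which mTORC1, a kinase that senses amino acids and growth factors, and the RNA-binding protein LARP1 control their translation and storage. Fasting lowers mTORC1 activity in many tissues. In the intestine, the stem cells at the crypt base divide daily, and protein synthesis serves that growth.

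The starts of 6 genes are shown, among them paralogues, of which only Rpl7l1 parted from its parent beyond counting error in the values below. Its parent Rpl7 had no promoter entry. Rpl22l1 followed Rpl22, and the Rps27 pair had too few counts to compare. Promoter sequences come from RefSeq (GRCm38.p6), each running from 40 bases before to 30 bases after an annotated start, written 5′ to 3′ on the gene's strand. Capitals mark the pyrimidine words CTTTCC, then CTTTTCC, and also CTCTTCC, searched on the sense strand as stand-ins for the TOP motif. Rpl4 and Rpl22 are large-subunit members with a capital word, Rpl22l1 is the paralogue of Rpl22, Rps27 and Rps27l form a small-subunit pair, and Rpl7l1 is the paralogue that had the opposite sign from the rest. Rpl22 and Rps27l have a further annotated start, not shown.
Rpl4 (chr9:64173347-64173416, + strand): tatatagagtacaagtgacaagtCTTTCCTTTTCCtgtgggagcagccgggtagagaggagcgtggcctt
Rpl22 (chr4:152325686-152325755, + strand): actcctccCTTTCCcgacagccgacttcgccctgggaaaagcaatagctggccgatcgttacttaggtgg
Rpl22l1 (chr3:28805468-28805537, + strand): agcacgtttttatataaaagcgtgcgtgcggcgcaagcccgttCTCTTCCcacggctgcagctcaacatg
Rps27 (chr3:90213619-90213688, - strand): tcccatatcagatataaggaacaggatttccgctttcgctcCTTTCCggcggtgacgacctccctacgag
Rps27l (chr9:66946046-66946115, + strand): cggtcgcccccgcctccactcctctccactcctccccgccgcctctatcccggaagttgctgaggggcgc
Rpl7l1 (chr17:46782627-46782696, - strand): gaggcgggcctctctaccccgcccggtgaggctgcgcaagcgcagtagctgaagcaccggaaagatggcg

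A promoter entry was matched for 65 of the 85 members. Within 50 bases on either side of a start, 32 of these 65 (49.2%) held at least 1 of the 3 words, against 8.78% of all 27025 genes with an entry. The word bound by ETS factors such as GABP, CCGGAAG on either strand, was in 14 members (21.5%), against 5.98% of all genes and 13.4% of the 9246 measured genes that are no members. Read on the opposite strand, that word is CTTCCGG, whose first letters can be the end of the pyrimidine word CTCTTCC. Such a match is a description of letters. Annotated starts can lie some bases from the true start, so the lack of a word says nothing about a message.

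Sequencing gave 6985316 counts for the fed cells, spread over 17970 genes, and 5020056 for the fasted cells, spread over 17067. Levels in CPM are counts per 1000000 counts of the library, so that 1 count was worth 0.143 CPM (fed) or 0.199 CPM (fasted). Counts were divided by 1 size factor per library, and each ratio is fasted over fed on the log2 scale with an exact 95% Clopper-Pearson interval that covers counting error only. The stem cell markers Lgr5 and Olfm4 were abundant in both libraries, with 3381 and 1709 counts for Lgr5 and 100399 and 41452 for Olfm4. In the fasted library 11 of 12 stem cell markers had an interval below 0 (list median -0.30), as did 7 of 10 markers of cycling cells (median -0.53). The share of all measured genes was 19.2%. Among 20 markers of absorptive enterocytes 12 were at least 2-fold higher, against 2.51% of all measured genes, and Reg3g (-0.32) had an interval below 0. The summed level of the 20 went from 3035 to 5043 CPM, with Fabp1 alone going from 29.8 to 806 CPM. Of 10 goblet cell markers 5 were at least 2-fold higher, with summed levels of 658 and 1288 CPM. Paneth cell markers summed to 1166 and 1011 CPM, enteroendocrine markers to 29.3 and 27.5 CPM, and tuft cell markers to 14.2 and 14.3 CPM. The immune list summed to 1043 and 806 CPM, most of it Cd74, which had 7196 and 4014 counts. Its 3 measured genes Cd74 (-0.34), Itgam (-0.76) and Cd68 (-1.56) all had intervals below 0. Cd3g and Cd79a had 0 counts in both libraries, and Ptprc had 1 and 0. Of the stromal and endothelial list Col3a1 and Dcn had 0 counts in both, and the summed level was 2.29 and 1.39 CPM. In such bulk libraries, more cells of a type and more RNA per cell cannot be told apart. The part of enterocyte, goblet, immune and cycling cells in the ratios below was not tested.

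Most ribosomal protein genes were higher in the fasted library, each by less than 2-fold. The 85 members took 149234 counts in the fed library, 2.14% of its total (exact 95% interval 2.13 to 2.15), and 147346 counts or 2.94% (2.92 to 2.95) in the fasted library. Scaled sums differed by a log2 ratio of 0.48 (0.47 to 0.49). Of the 85, 79 passed the minimum level (a mean of 1 CPM and 20 counts in all). Of these 79, 74 had a log2 ratio above 0, 93.7% against 47.9% of all 12026 measured genes, and 56 had an interval above 0 (background 16.7%). The interval lay below 0 for 1 member, Rpl7l1 (background 19.2%). The median member had a log2 ratio of 0.43, or 1.35-fold, and the median of all measured genes was -0.02.

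None of the 79 members reached a 2-fold difference with an interval excluding 1, in either direction, where 2.51% of all measured genes were higher and 1.91% lower by that rule. At 1.5-fold, 12 members (15.2%) were higher, against a background of 5.11%, and 0 were lower, against 5.05%. These 12 were Rps27a, Rpl17, Rpl37a, Rpl37, Rps14, Rpl35a, Rpl28, Rpl34, Rps16, Rps28, Rps15a and Rps20. Across all measured genes short transcripts had higher ratios than long ones (Spearman correlation with exon length -0.25 across 11991 genes, which are not independent replicates). Members are short, with a median exon length of 946 bases against 2997 for all measured genes. Subtracting the running median of genes of like exon length left a member median of 0.31, 67 of 79 members above 0 and 50 with an interval above 0, and reduced the 12 members past 1.5-fold to 3.

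**Figure D1:**
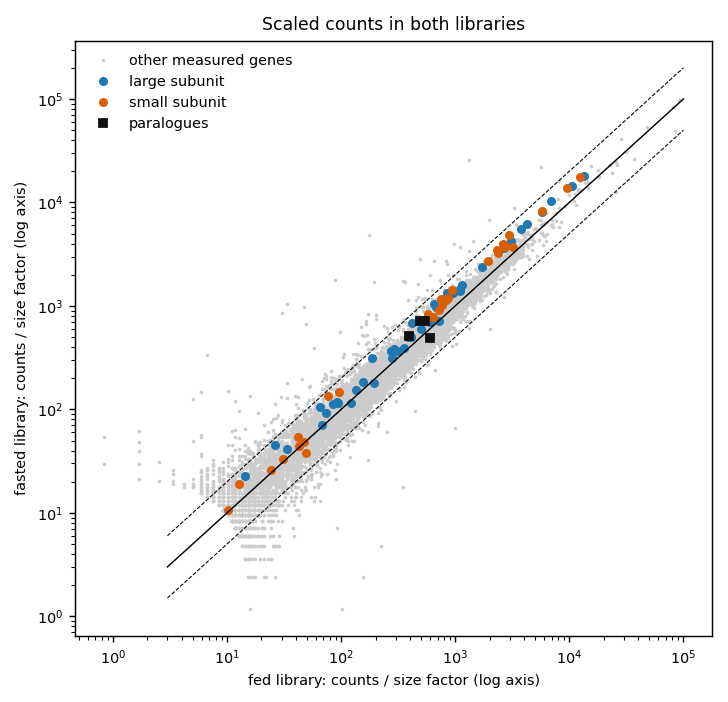
Counts divided by the size factor in the fed (horizontal, log axis) and the fasted library (vertical, log axis) for each measured gene with counts in both. The solid line marks equal values and dashed lines mark 2-fold differences. Of the 79 members, coloured by subunit with paralogues as black squares, 74 lie above the solid line, and all 79 lie between the dashed lines. Rpl7l1, Rpl10, Rpl9 and Rpl10a are among those below it.

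Among the abundant members the ratios were close to each other. The 29 members with at least 1000 counts in the fed library all had intervals above 0, from 0.22 for Rps2 to 0.71 for Rps14, with a median of 0.48. Their robust SD (scaled median absolute deviation) was 0.08, where the median interval reached 0.07 to either side. For the 1522 other genes with at least 1000 fed counts, which were less deeply counted (median 1530 against 3198 fed counts), the robust SD was 0.22, their interval reached 0.11 to either side, and their median was -0.03. Of these 1522 genes, 406 had an interval above 0 and 555 below. The 50 members with fewer counts had a median of 0.35, and Rps27a had the highest value, 0.81.

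The small subunit had slightly higher ratios than the large. Over 44 measured canonical members (those that are no paralogues) of the large subunit the median was 0.41, with 41 above 0. The 31 of the small subunit had a median of 0.47, with 30 above 0. Summed counts gave 0.46 (0.45 to 0.47) for the large and 0.51 (0.49 to 0.52) for the small subunit, and the difference of 0.05 had a counting interval of 0.03 to 0.07 (Woolf interval from the 4 sums). Ratios within each subunit spread far more than that, with 50% of members between 0.28 and 0.54 in the large and between 0.31 and 0.57 in the small subunit.

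**Figure D2:**
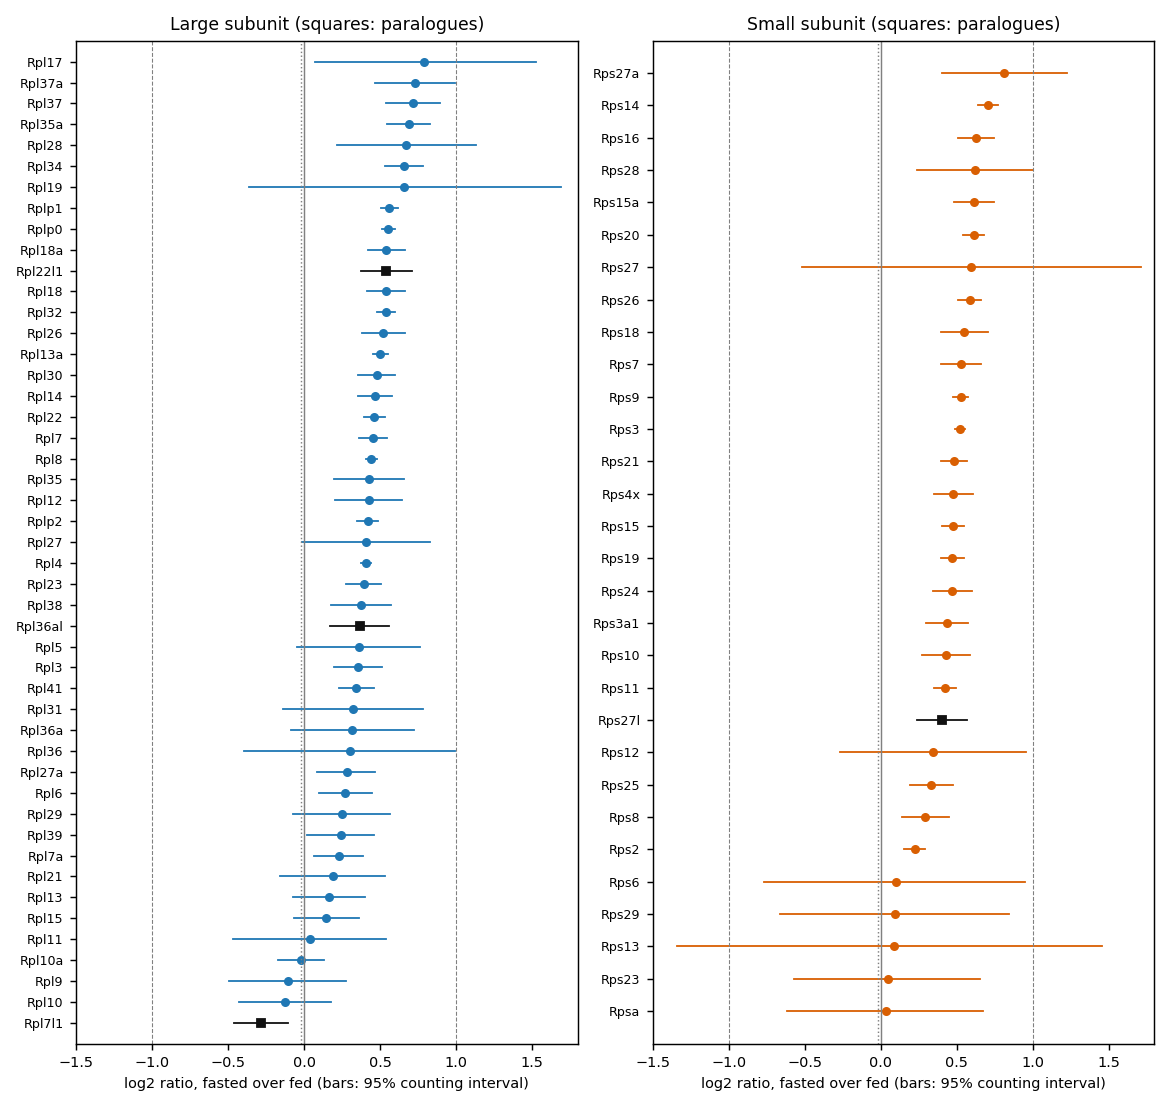
Log2 ratio of fasted over fed for 77 of the 79 measured members, ordered by ratio within the large (left) and small subunit (right), with 95% counting intervals. The solid vertical line is 0, the dotted line the median of all measured genes at -0.02 and the dashed lines 2-fold. Most points lie between 0.2 and 0.7, wide bars belong to members with few counts, and Rpl7l1 is the member whose whole interval lies left of 0.

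In the large subunit, the most abundant members per exon length were Rpl8, Rpl4, Rplp1, Rpl13a and Rplp0. Rpl8, a protein next to the catalytic centre of the large subunit, was read 12513 times in fed cells and 12047 times in fasted cells. Per 1000 exon bases and 1000000 library counts, its levels were 1716 and 2299. With size factors, the log2 ratio of its counts was 0.44 (0.41 to 0.48). Rpl4, which lines the tunnel of the growing peptide, had 15996 and 15018 counts, the largest number of any member, and a ratio of 0.41 (0.37 to 0.44). Rpl13a, which is known also as part of a complex that silences translation of inflammatory messages, had 6845 and 6868 counts and a ratio of 0.50 (0.45 to 0.55). Of Rpl13a exon bases, 35.4% lie under another gene.

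All 4 genes of the P stalk, the flexible arm of the large subunit that recruits translation factors, had higher values in the fasted library. Its base protein gene Rplp0 had 8260 and 8588 counts, a log2 ratio of 0.55 (0.51 to 0.60). The arm genes Rplp1 and Rplp2 had 5037 and 5262 counts with a ratio of 0.56 (0.50 to 0.62), and 3198 and 3025 counts with 0.42 (0.35 to 0.49). Rpl12, which binds at the foot of the stalk, had 342 and 325 counts and 0.42 (0.20 to 0.65). None of these intervals reached 0. Rpl5 and Rpl11, which carry the 5S ribosomal RNA and can bind the p53 regulator MDM2, had few counts: 110 and 100 for Rpl5, a ratio of 0.36 (-0.05 to 0.76), and 81 and 59 for Rpl11, a ratio of 0.04 (-0.47 to 0.54). Neither differed between the libraries beyond counting error. At the rim of the peptide exit tunnel 6 of 7 listed genes were measured, with a median of 0.48. All 6 had a ratio above 0, against 93.7% of members and 47.9% of all measured genes. The interval lay above 0 for 4 of them, and those of Rpl19 (17 and 19 counts) and Rpl31 included 0.

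The large-subunit genes Rpl17, Rpl37a, Rpl37 and Rpl35a, were among the 6 canonical members with the highest ratios. Rpl37 had 492 and 573 counts, a log2 ratio of 0.72 (0.54 to 0.89). Rpl35a had 771 and 880 counts and 0.69 (0.55 to 0.83), and Rpl37a 223 and 262 counts and 0.73 (0.47 to 0.99). Each of these had more raw counts in the fasted library, although that library was the smaller. Rpl17, at the tunnel exit, rested on 31 and 38 counts, with a ratio of 0.79 (0.07 to 1.52).

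In the small subunit, Rps3, Rps9, Rps15 and Rps21 were among the genes with the highest level per exon length. Rps3, at the entry of the messenger RNA channel, had 14735 and 14955 counts, a log2 ratio of 0.52 (0.49 to 0.55). Rps9, near the entry of the same channel, had 6890 and 7017 counts and 0.52 (0.48 to 0.57), Rps15 had 3273 and 3221 counts and 0.47 (0.40 to 0.55), and Rps21 had 2293 and 2265 counts and 0.48 (0.40 to 0.56). The intervals of Rps3 and Rps9 overlap, so their ratios are not told apart by the counts.

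Rps14, a protein of the platform next to the messenger RNA (chromosome 18, + strand, from position 60747098 in GRCm38), had 3525 fed and 4075 fasted counts and was 1.63-fold higher, with a log2 value of 0.71 (0.64 to 0.77). Its interval lay above those of the other abundant small-subunit genes just named. Rps27a, which encodes a fusion of ubiquitin with a head protein, had 91 and 113 counts and the highest ratio of all members, 0.81 (0.40 to 1.22). Over the 14 genes of the head of the small subunit the median was 0.50, and over the 17 other canonical genes of this subunit it was 0.47. The 32 measured genes of families shared with bacteria and archaea had a median of 0.43, and the other 43 canonical members 0.46.

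Rpl10, Rpl9, Rpl10a, Rpsa and Rpl11 were among the canonical members with the lowest ratios, and the intervals of these genes included 0. Rpl10, which completes the large subunit late in its assembly, had 231 and 150 counts, a log2 ratio of -0.13 (-0.43 to 0.18). Rpl10a had 860 and 600 counts and -0.02 (-0.17 to 0.13), an interval that also ends below the member median of 0.43. Its value was -0.22 (-0.37 to -0.07) after the length correction, 0.0023 with upper-quartile factors and 0.01 with pseudogene reads added, so its sign depended on the setting. Rpl9 had 146 and 96 counts and -0.11 (-0.49 to 0.27), and Rpsa, the laminin receptor precursor, 51 and 37 counts and 0.03 (-0.62 to 0.67). Rps6, the classical target of S6 kinase, had 29 and 22 counts and 0.10 (-0.77 to 0.95). Of 79 members, 54 had an interval that held the member median, 16 lay above it and 9 below it. Rpl10, Rpl10a, Rpl13, Rpl15, Rpl7a, Rpl7l1, Rpl9 and Rps2 were among those below it.

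Ribosomal protein genes have many processed pseudogenes, and a read that matches several places cannot be given to 1 gene. The sources used here do not say how such reads were counted. For each gene, the share of 50-base words of its main transcripts that occur in no other annotated gene was computed. The median share was 57.0% for the measured members and 99.96% for all measured genes. Rpl8 had 93.7% and 12513 fed counts. Rps27 had 1.35% and 15 fed counts, Rps6 15.4% and 29, and Rpl23a 14.3% and 2. Other members went the other way. Rpl10a had 11.9% and 860 fed counts and Rpl30 17.7% and 1125, while Rpsa had 66.7% and 51 and Rps29 64.2% and 37. Across the 79 measured members, which share both libraries, the word share had a Spearman correlation of 0.36 with the fed level per exon length and 0.26 with the log2 ratio. The 44 members with a share of at least 50% had a median ratio of 0.47, with 43 above 0. The 35 below that share had 0.33, with 31 above 0. The part of shared words in these levels and ratios was not tested.

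**Figure D3:**
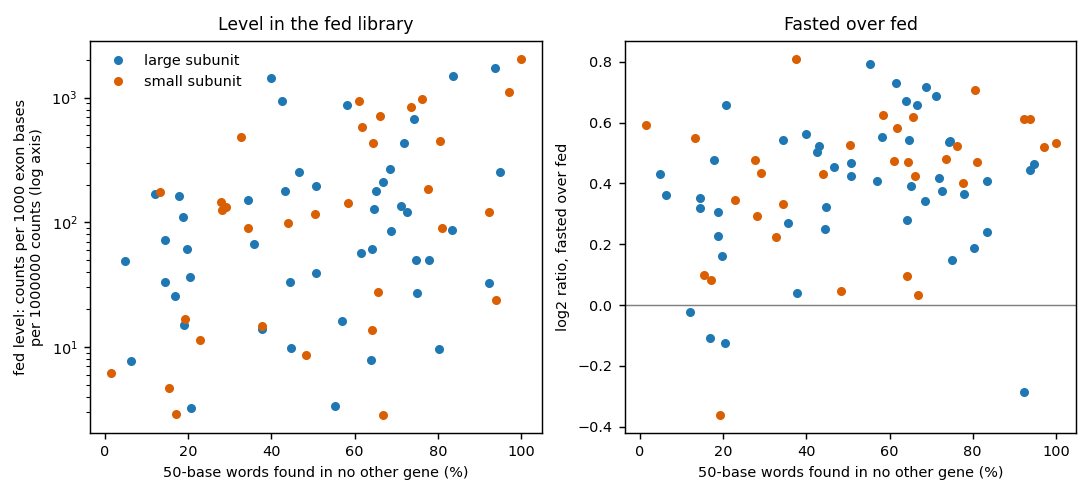
Each point is 1 of the 79 measured members, by the percentage of 50-base words found in no other gene (horizontal) and by the fed level in counts per 1000 exon bases per 1000000 library counts (left, log axis) or the log2 ratio of fasted over fed (right). Members at 80% or more range from about 10 to over 1000 in level, and all members below 0 except Rpl7l1 lie at or under 20.4%.

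Of 266 annotated copies whose symbols name a member followed by -ps, 142 had reads assigned to them. Together these had 442 and 476 counts, a log2 ratio of 0.60 (0.41 to 0.79), and equalled 0.296% of the members' fed counts. With these reads added to their members the median was 0.44 and 75 of 79 were above 0.

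Paralogues did not all follow their parents. The list held 8 pairs, and 5 could be compared, in each case without any scaling, since size factors cancel in the difference. Rpl7l1 (chromosome 17, minus strand), a relative of the large-subunit gene Rpl7, had 709 fed and 412 fasted counts, and its log2 value was -0.29 (-0.46 to -0.11). Rpl7 itself had 2040 and 1978 counts and 0.45 (0.36 to 0.54). The difference of paralogue minus parent was -0.74 (Woolf interval -0.94 to -0.54), and Rpl7l1 made up 25.8% of the pair's reads when fed and 17.2% when fasted. Its main transcripts are 92.4% unique by the measure above.

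Rpl22l1, which can take the place of Rpl22 in the ribosome, followed its parent. It had 587 and 605 counts, a log2 ratio of 0.54 (0.38 to 0.71). Rpl22, which binds a wide range of RNAs, had 3664 and 3576 counts and 0.46 (0.40 to 0.53), a difference of 0.08 (-0.10 to 0.26). Both have a pyrimidine word in the promoters printed above, in Rpl22 well upstream of the annotated start and in Rpl22l1 just after it. Rpl36al had 470 and 429 counts and 0.37 (0.17 to 0.56), against 111 and 98 counts and 0.32 (-0.09 to 0.72) for Rpl36a. That difference was 0.05 (-0.39 to 0.48). Of Rpl36al exon bases, 24.5% lie under another gene. Counts assigned to Rpl36al exceeded those of its parent, whose main transcripts are 14.5% unique.

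Rps27l, known as a target of p53, was counted 643 and 602 times, with a log2 value of 0.40 (0.24 to 0.57). Rps27 had 15 and 16 counts and 0.59 (-0.52 to 1.71), so the difference of -0.19 had an interval from -1.22 to 0.84. Neither direction nor likeness can be read from this pair at this depth. Rps27l has none of the 3 pyrimidine words in the promoter printed above, though it holds the ETS word, and Rps27 has 1 pyrimidine word, directly at its start. Rps4l, which the annotation used here calls a transcribed pseudogene and which is therefore no member, had 251 fed and 135 fasted counts, and its log2 value was -0.40 (-0.71 to -0.09). Its relative Rps4x, the X-linked small-subunit gene, had 983 and 969 counts and 0.48 (0.35 to 0.61), a difference of -0.87 (-1.20 to -0.55).

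**Figure D4:**
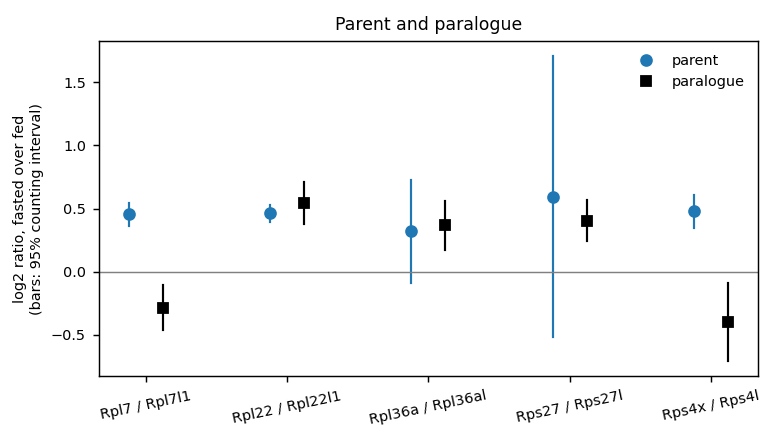
Log2 ratio of fasted over fed for parent (circle) and paralogue (square) in the 5 pairs that could be compared, with 95% counting intervals. Rpl7l1 and Rps4l lie below 0 while their parents lie near 0.45 and 0.48, and the other 3 pairs overlap.

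Another 6 members were below the minimum level. Paralogues known mainly from muscle and testis were nearly or wholly without counts. Rpl3l, the striated-muscle relative of Rpl3, had 0 counts in both libraries, and so had Rpl39l, the testis relative of Rpl39. A count of 0 allows up to 0.429 CPM (fed) or 0.598 CPM (fasted), the level of 3 counts, for counting error only. Rpl10l, the relative of the X-linked Rpl10 used in male germ cells, had 1 and 0 counts. Their main transcripts are between 92.4% and 100% unique. The parents Rpl3 and Rpl39 had 683 and 618 counts (0.35, 0.19 to 0.51) and 368 and 308 counts (0.24, 0.02 to 0.46). Rpl23a had 2 and 1 counts, Rpl24 had 10 and 5, and the retrocopy Rps27rt had 6 and 4, all of them with a word share of at most 18.3%.

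The ribosome components Rack1 and Fau lie outside the symbol rule, and their ratios lay within the range of the members. Fau was past 1.5-fold. Rack1, which encodes a scaffold for kinases on the head of the small subunit, had 18248 and 18977 counts, a log2 ratio of 0.55 (0.52 to 0.58). Fau, which encodes a ubiquitin-like protein fused to a small-subunit protein, had 110 and 117 counts and 0.59 (0.20 to 0.98).

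Most other genes with known TOP messages were also higher in the fasted library. Of 14, 12 had intervals above 0 and 2 below (16.7% and 19.2% of all measured genes), with a median of 0.26 against 0.43 for the members. Their exons are longer, with a median of 1928 bases, and after the length correction the medians were 0.26 for these genes and 0.31 for the members. None of the 14 reached 1.5-fold in either direction. Eef2, the factor that moves the ribosome along, had 33974 and 34604 counts and 0.52 (0.50 to 0.55). The initiation factor gene Eif3e had 1483 and 1512 counts and 0.53 (0.42 to 0.63). The splicing regulator gene Hnrnpa1 had 271 and 137 counts and -0.49 (-0.79 to -0.18), and Nap1l1, a histone chaperone gene, -0.15 (-0.29 to -0.0038).

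Genes that build ribosomes had ratios closer to 0. Of 29 listed genes, Riok2 was not analysed here. Of the 28 measured genes of ribosome biogenesis and RNA polymerase I, 18 had a ratio above 0, 7 had an interval above 0 and 2 below, with a median of 0.08. Among all measured genes these shares were 47.9%, 16.7% and 19.2%. The largest ratios were Taf1d, of the polymerase I initiation complex, at 0.41 (0.19 to 0.62), and Heatr1, a processome component, at -0.40 (-0.58 to -0.23). Among 13 genes that control TOP messages or ribosomal protein synthesis the median was 0.02 and none reached 1.5-fold. Larp1 had 2182 and 1531 counts and -0.01 (-0.11 to 0.08), Mtor 601 and 436 counts and 0.03 (-0.15 to 0.22), and Myc 1872 and 1442 counts and 0.12 (0.02 to 0.22). The translation repressor gene Eif4ebp1 had the largest ratio of this list, 0.39 (0.06 to 0.72).

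**Figure D5:**
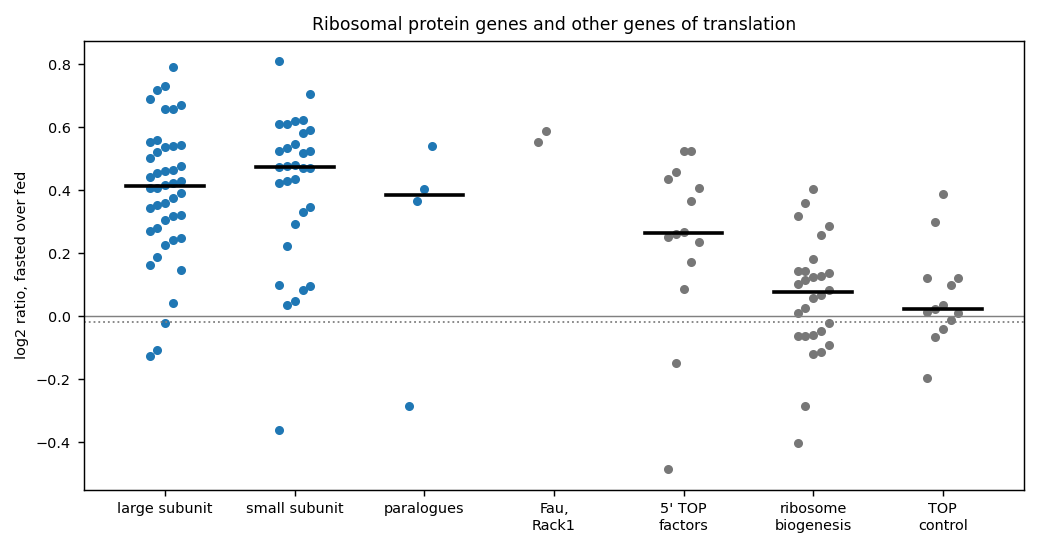
Log2 ratio of fasted over fed for genes of 7 groups, with the median of each group of over 2 genes as a black bar, 0 as a solid line and the median of all measured genes at -0.02 as a dotted line. Medians were 0.41 and 0.47 for the large and small subunit, 0.26 for other TOP genes and 0.08 for ribosome biogenesis genes.

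Members with and without a pyrimidine word had similar medians. The 30 measured members with a word near a start had a median log2 ratio of 0.45 and the 30 without 0.41. Among measured genes that are no members the 814 with a word had a median of 0.004, and the others -0.02. Members without a promoter entry are left out. The words were searched in DNA around annotated starts and can lie outside the message. The part of the TOP motif itself in the ratios was therefore not tested.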

How the data were processed

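Per the labels' protocols, Trizol received the sorted cells, and total RNA went into an Illumina TruSeq RNA library. The authors deposited whole-number counts per Ensembl gene for each library, and a table of the same counts divided by 1 size factor per library, a signal in which whole reads were recovered for 100% of values within 0.02. FastQC, STAR, HTSeq, DESeq and the builds GRCm38 and mm10 are named without versions or roles, per the submitters' processing notes. The sources used here name neither the annotation nor the strand setting, so reads of a gene and of one overlapping it may be mixed.

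Of 45706 gene IDs, 45143 matched a symbol in GENCODE M21 (GRCm38), which gave types, exon lengths of the principal protein-coding transcripts, and transcripts for the share of 50-base words found in no other gene. Median-of-ratios size factors (1.19 and 0.842) scaled the counts. With 1 library per group no test was run. The procedure was tested on simulated data that held counting error only, which says nothing about differences between mice or libraries. Members, gene lists and motif words were chosen with earlier results of these data known. Named are all paralogues with parents, the 6 highest and 6 lowest canonical members, the 5 most abundant per subunit, stalk and 5S genes, members under the minimum, Rps6, Rpsa, Rps14, Larp1, Mtor, Myc and up to 3 extreme members of other lists. Other genes were chosen after their values were seen. Alternatives were TMM and upper-quartile factors (edgeR 4.0.16), total counts, factors from other genes, ratios of the authors' normalised table, no filter on counts (82 members with counts in both libraries), 5 CPM, a length correction (running median over 501 genes) and added pseudogene reads. Some genes that this rule names are not reported here.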

Additional observations from a re-analysis of the deposited data

How the results depend on the processing

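The member median stayed between 0.31 and 0.47 under every alternative run, and 0 members passed 2-fold in either direction. Correction for exon length took the small-subunit median from 0.47 to 0.32 and the large-subunit median from 0.41 to 0.29. It also took the number of members past 1.5-fold from 12 to 3. The log2 ratio of the summed counts was 0.46 under total counts and 0.50 under upper-quartile factors, shifts that those factors impose on all genes alike. The paralogue differences stayed within their intervals when pseudogene reads were added, with that of Rpl36al, whose interval included 0, at -0.0028. Of 37 single members, 18 moved beyond their own interval under the length correction and 0 under the others. Restricting to members with at least 50% unique words (median 0.47) or under 10% of exon bases below another gene (0.44) was chosen after seeing the data. No paired analysis was possible because each group had 1 library. Depth limits members under about 100 counts, whose intervals reach 0.4 or more to either side.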
